A study of Rattus norvegicus with 74 samples.

Results

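miR-199a and miR-214 are neighbouring microRNAs (miRNAs) of the mesenchyme, and their levels were followed through the rat kidney from the suckling period to old age. The members were all miR-199a and miR-214 arms of the array that the scanner software detected on at least 1 array. These were rno-miR-199a-5p, rno-miR-199a-3p and rno-miR-214-3p, 3 of the 311 miRNAs detected at least once and of the 677 on the array. The remaining arm, rno-miR-214-5p, was detected on 0 of 74 arrays and is not described further. The pattern of interest was a fall with maturation and a return in late life.

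Whole kidneys came from untreated F344 rats, an inbred strain, of both sexes. They were killed with CO2 at 8 ages, the young at 2, 5, 6 or 8 weeks, the adults at 15 or 21 weeks and the old at 78 or 104 weeks. Each of the 16 groups of sex and age held 4 or 5 animals, and each animal gave 1 single-color array. All groups were of that strain and none was treated, so age and sex alone defined them. Females were not synchronized for estrous cycle.

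miRNAs are short RNAs that pair with messenger RNAs, mainly through a seed near their 5′ end, and lower their translation and stability. In mammals miR-199a-2 and miR-214 lie close together inside an intron of Dnm3, the gene of a dynamin, and are made from a transcript that runs against it. They are known from mesenchyme of the embryo, from fibroblasts and pericytes, and from fibrotic kidney, where they have been linked to extracellular matrix and to the response to transforming growth factor beta.

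The RefSeq annotation of GRCr8 placed both hairpin genes on the plus strand of chromosome 13. Mir199a2 lay at chr13:77116225-77116334 and Mir214 at chr13:77121645-77121752, 5310 bases downstream. Both lay within the span of Dnm3, chr13:76892381-77371346. The mature sequences below, from RefSeq, show that the 3 members carry 3 different seeds (bases 2 to 8, in capitals), so that they are separate products and not copies of each other.
rno-miR-199a-5p, chr13:77116255-77116277: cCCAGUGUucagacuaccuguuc
rno-miR-199a-3p, chr13:77116294-77116315: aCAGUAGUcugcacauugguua
rno-miR-214-3p, chr13:77121713-77121733: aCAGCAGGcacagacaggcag

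The Mir214 hairpin is shown because only its 3′ arm was detected. Its 2 arms as RefSeq annotates them are in capitals, the undetected miR-214-5p of 17 bases first and miR-214-3p second. Whether the annotated miR-214-5p is the strand that pairs with miR-214-3p was not tested.
Mir214, chr13:77121645-77121752: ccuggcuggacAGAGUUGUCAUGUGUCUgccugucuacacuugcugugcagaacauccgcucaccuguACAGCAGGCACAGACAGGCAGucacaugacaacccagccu

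No other of the 693 mature rat miRNAs in the RefSeq table had bases 2 to 8 of any member. The 3 members were detected on all 74 arrays. Levels are given as normalized intensity, the total signal of a miRNA divided by the 75th percentile of the 311 detected miRNAs on the same array. A value of 1 is therefore that percentile, and levels of different miRNAs are not compared with each other because their probes differ. A difference was called when the Benjamini-Hochberg adjusted p of limma's moderated test over the 311 miRNAs was under 0.05 and the fold change was at least 1.5. The scanner software's own error was about 7.48% of the signal for miR-199a-3p, 9.24% for miR-199a-5p and 7.24% for miR-214-3p (medians over arrays). The coefficient of variation between animals of a group had a median of 7.58%, 9.13% and 11.5%, respectively.

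All 3 members were highest at 2 weeks in both sexes, and the level of each depended on age in either sex. The adjusted p of the age effect in females was 2.41e-09 for miR-199a-3p, 2.71e-07 for miR-199a-5p and 2.13e-10 for miR-214-3p. In males it was 1.83e-13, 6.04e-11 and 1.90e-12. Among all miRNAs tested, the age effect was called for 36.7% in females and 45.3% in males. The RNA was that of the whole kidney, so that fewer cells of a type and less RNA per cell cannot be told apart in any of these results. Up to 21 weeks no member was called between the sexes, and at 104 weeks the sexes stood apart, as the plot of levels by age shows.

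**Figure D1:**
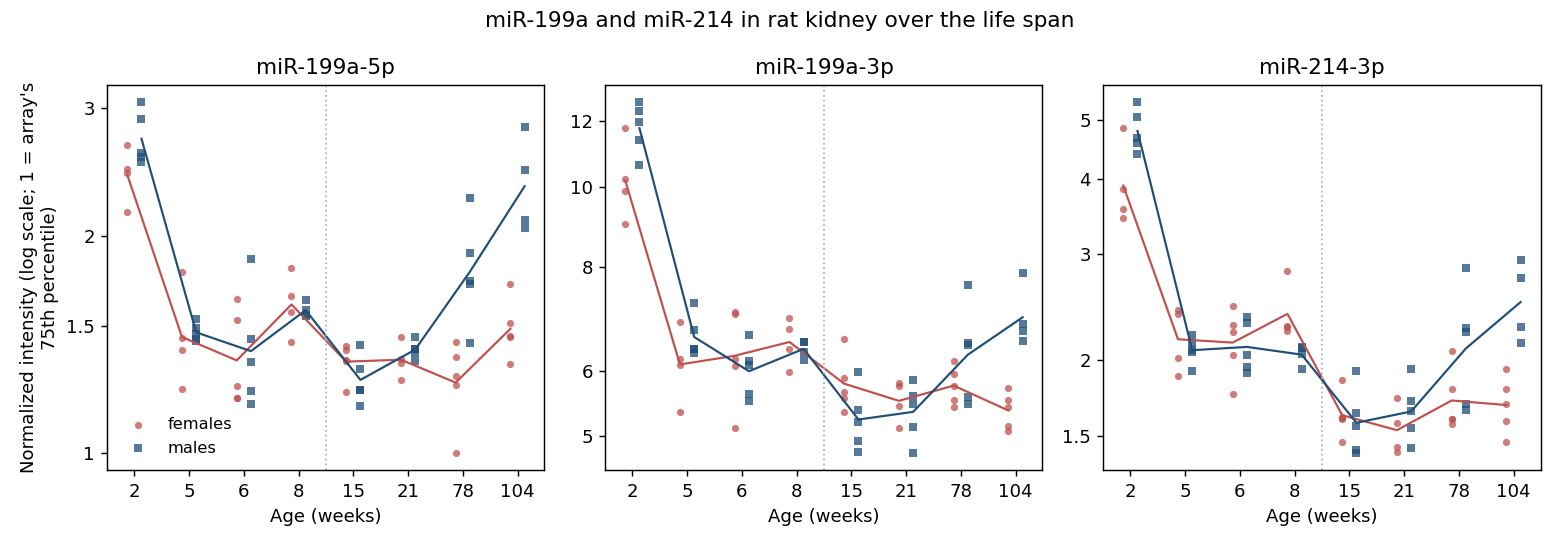
Normalized intensity of each member (log axis) against age in weeks, with 1 point per array (4 or 5 a group), females as circles, males as squares and lines through the means of the log2 values. The dotted line separates ages up to 8 weeks from later ages, whose arrays lay on other slides except for 1 array. All 2-week points lie above the 8-week points of the same sex, and at 104 weeks all 4 male points lie above all 5 female points.

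The first question was how the cluster changed as the kidney matured, between 2 and 8 weeks. All 3 members fell in both sexes, by 0.60 to 0.71 on the log2 scale in females and by 0.79 to 1.23 in males. miR-199a-5p, the 5′ arm of its hairpin, read 2.15, 2.44, 2.48 and 2.67 in the 2-week females and 1.42, 1.57, 1.65 and 1.80 in the 8-week females. In males it read 2.53, 2.57, 2.60, 2.90 and 3.06 at 2 weeks and 1.55, 1.55, 1.58 and 1.63 at 8 weeks. Neither sex had an 8-week array that reached its lowest 2-week array.

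miR-199a-3p, the other arm of that hairpin, read 9.01, 9.88, 10.2 and 11.8 in 2-week females and 5.98, 6.38, 6.73 and 6.95 in 8-week females. In males it went from 10.6, 11.4, 12.0, 12.3 and 12.6 at 2 weeks to 6.19, 6.32, 6.49 and 6.51 at 8 weeks. The 2 ages did not overlap in either sex, and the 8-week males lay within a narrow band.

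miR-214-3p, the detected arm of its hairpin, read 3.45, 3.57, 3.85 and 4.87 in 2-week females and 2.24, 2.27, 2.28 and 2.81 in 8-week females. In males it went from 4.39, 4.59, 4.68, 5.06 and 5.36 to 1.93, 2.05, 2.09 and 2.11. The ages were again apart in both sexes.

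In females the log2 difference was -0.60 ± 0.11 (SE) for miR-199a-5p (limma, adjusted p = 7.15e-05), -0.65 ± 0.09 for miR-199a-3p (adjusted p = 3.29e-07) and -0.71 ± 0.12 for miR-214-3p (adjusted p = 1.13e-05). All 3 passed, whereas 11.6% of all miRNAs were called lower and 14.5% had 8-week females wholly below 2-week females. In males the difference was -0.79 ± 0.11 (adjusted p = 1.79e-07), -0.88 ± 0.08 (adjusted p = 4.61e-11) and -1.23 ± 0.12 (adjusted p = 2.83e-10), or 1.73-fold, 1.84-fold and 2.35-fold lower. Again all 3 passed, beside 15.1% of all miRNAs called lower and 19% that did not overlap in that direction. The arrays of 2 and 8 weeks shared slides, and on each of the 4 slides with males of both ages and the 3 with females of both ages every member was lower at 8 weeks. In females the miR-199a-5p fold lay close to the threshold. It was no longer called without 2-week female replicate 4 (-0.55) or 8-week female replicate 2 (-0.54), and miR-199a-3p was not called without 2-week female replicate 4 (-0.58). Quantile normalization (-0.27) and normexp background correction (-0.29) also ended the female miR-199a-5p call, normexp the male one (-0.44), and scaling by the percentile over all miRNAs of the array all 3 female calls (-0.46 for miR-199a-5p, -0.51 for miR-199a-3p and -0.57 for miR-214-3p).

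Markers of other cell types moved over the same ages. Of 14 detected tubule and epithelial arms 3 rose in females and 7 in males, and 3 of 6 leukocyte arms rose in each sex. Of all 311 miRNAs, 65 were called in either direction in females, 36 of them (11.6% of all) lower. In males 94 were called, 47 of them (15.1% of all) lower. Both detected arms of miR-9a, known from neurons, fell in both sexes, miR-9a-5p by 0.64 in females and by 0.70 in males. miR-122-5p, the main miRNA of hepatocytes, fell by 3.97 in males (adjusted p = 0.0176), where the 2-week arrays ran from 0.397 to 23.6 against 0.0774 to 0.107 in 2-week females, and it was not called in females (0.47). The muscle arm miR-499-5p rose in both sexes, and 0 endothelial and 0 erythroid arms were called. With each array left out in turn, the male differences of the members lay between -0.82 and -0.75 for miR-199a-5p, -0.92 and -0.86 for miR-199a-3p and -1.26 and -1.19 for miR-214-3p. The part of these cell types in the fall was not tested.

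The fall was already present at 5 weeks, after weaning. In females 5-week levels were below 2-week levels by 0.75 ± 0.11 on the log2 scale for miR-199a-5p, 0.74 ± 0.09 for miR-199a-3p and 0.85 ± 0.12 for miR-214-3p. In males the same differences were -0.89 ± 0.10, -0.84 ± 0.07 and -1.21 ± 0.11. All 6 were called, with the lowest 2-week array above the highest 5-week array each time, while 10.9% of all miRNAs were called lower in females and 11.9% in males, and 12.9% and 15.1% were wholly lower. The 5-week mean was 55.4% to 60.0% of the 2-week mean in females and 43.2% to 56.0% in males. Between 5, 6 and 8 weeks no pair was called for any member. The sole neighbouring pair without overlap was miR-199a-5p in males, whose 5 arrays at 5 weeks averaged 1.47 ± 0.04 (SD) and whose 4 arrays at 8 weeks averaged 1.58 ± 0.04 (SD). It was not called (limma, adjusted p = 1), and 6.75% of all miRNAs were wholly higher at 8 weeks.

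From 8 to 15 weeks all 6 differences were again below 0, although none was called, beside 0.965% of all miRNAs called lower in females and 0.643% in males. In males they were -0.32 ± 0.11 for miR-199a-5p, -0.28 ± 0.08 for miR-199a-3p and -0.38 ± 0.12 for miR-214-3p, with adjusted p of 0.0914, 0.0521 and 0.0906. In these males all 3 members were wholly below their 8-week range, as were 7.07% of all miRNAs. In females miR-214-3p differed by -0.56 ± 0.11 (adjusted p = 0.00161, 1.47-fold lower), just short of the fold threshold, and miR-199a-5p by -0.26 ± 0.11 (adjusted p = 0.145). Both were wholly below their 8-week range, as were 4.5% of all miRNAs. The slides changed between these ages too, so that slide and age cannot be told apart here.

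In males each member had its lowest mean at 15 weeks, but the low point was not resolved. miR-199a-3p averaged 5.26 ± 0.47 (SD, n = 5), miR-199a-5p 1.26 ± 0.10 and miR-214-3p 1.59 ± 0.21. None of the 21-week levels was called against these, nor were those of 6 weeks, a comparison that crosses the slide sets. From 6 to 15 weeks miR-199a-5p differed by -0.13 (limma, adjusted p = 0.555) and miR-199a-3p by -0.19 (adjusted p = 0.119). miR-214-3p differed by -0.42 (adjusted p = 0.0187, 1.34-fold), which missed only the fold threshold. In females the order of the later ages was not resolved either. From 15 weeks on, the mean level lay between 5.38 and 5.80 for miR-199a-3p, between 1.26 and 1.49 for miR-199a-5p and between 1.54 and 1.73 for miR-214-3p. No 2 neighbours in that order were called.

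The second question was whether the cluster returned in late life, between 21 and 104 weeks. In males miR-199a-5p and miR-214-3p rose, and miR-199a-3p was higher by less than the fold threshold, whereas in females none was called. miR-199a-5p read 1.34, 1.38, 1.39, 1.39 and 1.45 in 21-week males and 2.05, 2.10, 2.47 and 2.83 in 104-week males. In females it read 1.26, 1.33, 1.35 and 1.45 at 21 weeks and 1.33, 1.45, 1.45, 1.51 and 1.71 at 104 weeks. The male ages were apart. The female ages overlapped, although 4 of the 5 females of 104 weeks were above every female of 21 weeks.

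miR-199a-3p read 4.78, 5.14, 5.47, 5.59 and 5.86 in 21-week males and 6.52, 6.70, 6.83 and 7.86 in 104-week males. In females it read 5.11, 5.44, 5.75 and 5.81 at 21 weeks and 5.07, 5.15, 5.42, 5.53 and 5.72 at 104 weeks. All old males were above the young adult males, and the old females lay within or just under the range of the young adult females.

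miR-214-3p read 1.43, 1.55, 1.65, 1.71 and 1.93 in 21-week males and 2.14, 2.27, 2.74 and 2.94 in 104-week males. In females it read 1.41, 1.43, 1.57 and 1.73 at 21 weeks and 1.47, 1.59, 1.69, 1.79 and 1.93 at 104 weeks. Here too the male ages were apart while the female ages overlapped.

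In males the log2 difference between 104 and 21 weeks was 0.75 ± 0.11 (SE) for miR-199a-5p (1.68-fold, adjusted p = 2.22e-06), 0.60 ± 0.12 for miR-214-3p (1.52-fold, adjusted p = 0.000222) and 0.38 ± 0.08 for miR-199a-3p (1.30-fold, adjusted p = 0.000397). Of the 3 members 2 were called, beside 5.79% of all miRNAs called higher, and all 3 were wholly higher, beside 6.43%. In females the differences were 0.14 ± 0.11, 0.14 ± 0.11 and -0.04 ± 0.08, with adjusted p of 0.789, 0.834 and 1. None of the 3 was called by limma or by the methods' own comparison, and none had an unadjusted p under 0.05, with 1.29% of all miRNAs called higher. The call of miR-214-3p in males stood just above the fold threshold. It was lost without 21-week male replicate 2 (0.55) or 4 (0.58) and without 104-week male replicate 2 (0.53) or 6 (0.56), and with quantile normalization (0.55), normexp (0.45) or the replicate number as a block (0.58). Normexp also ended the call of miR-199a-5p (0.43). Males of both ages shared 4 slides, and on all 4 each member was higher at 104 weeks, with median within-slide differences of 0.70, 0.66 and 0.37 in the order above. Females of both ages also shared 4 slides. There miR-199a-5p was higher at 104 weeks on all 4 (0.07 to 0.25), miR-214-3p on 3 and miR-199a-3p on 1.

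The 78-week males lay between. miR-199a-5p read 1.42, 1.71, 1.73, 1.89 and 2.26, miR-214-3p 1.65, 1.69, 2.23, 2.26 and 2.85, and miR-199a-3p 5.48, 5.58, 6.44, 6.48 and 7.62. Each spread from the 21-week range to the 104-week range, and the group had the largest SD of log2 values among the male ages from 15 weeks on for each member. Against 21 weeks the differences were 0.36 ± 0.10, 0.35 ± 0.11 and 0.23 ± 0.07, all with adjusted p under 0.05 (0.00898, 0.0208 and 0.0208) and none past 1.5-fold, beside 3.86% of all miRNAs called higher. From 78 to 104 weeks the male miR-199a-5p was higher by a further 0.39 ± 0.11 (adjusted p = 0.0392, 1.31-fold), which was not called, beside 0.643% called higher. The female miR-199a-5p was higher by 0.25 ± 0.10 over the same ages (limma, adjusted p = 0.142), which was not called either.

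The return was partial. At 104 weeks the male mean was 86.4% of the 2-week male mean for miR-199a-5p, 59.2% for miR-199a-3p and 52.3% for miR-214-3p, having stood at 50.9%, 45.5% and 34.3% at 21 weeks. In 104-week females it was 61.2%, 52.6% and 43.0% of the 2-week female mean. miR-199a-5p of 104-week males was 0.22 below that of 2-week males on the log2 scale, which did not pass (adjusted p = 0.0943), and the other members remained lower, by 0.76 and 0.94. These comparisons cross the slide sets, so that slide and age cannot be told apart in them.

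The third question was whether the sexes differed. At 104 weeks every male array was above every female array for all 3 members, which held for 5.14% of all miRNAs. The difference, males minus females, was 0.66 ± 0.11 (SE) for miR-199a-5p (1.58-fold, adjusted p = 3.29e-06), 0.57 ± 0.12 for miR-214-3p (1.48-fold, adjusted p = 0.000135) and 0.37 ± 0.08 for miR-199a-3p (1.30-fold, adjusted p = 0.000277). miR-199a-5p was called, beside 3.22% of all miRNAs called higher in males, and the other 2 missed the fold threshold. Without 104-week male replicate 6 the miR-199a-5p difference was 0.57 and not called, and with normexp it was 0.44 and not called. miR-214-3p was called when 104-week female replicate 3 (0.59) or 4 (0.62) or 104-week male replicate 1 (0.64) or 3 (0.61) was left out. On each of the 4 slides that held both sexes every member was higher in males, with a median over slides of 0.70 for miR-199a-5p, 0.56 for miR-214-3p and 0.33 for miR-199a-3p.

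In 78-week rats the male level of miR-199a-5p exceeded the female level by 0.51 ± 0.10 (adjusted p = 9.76e-05, 1.42-fold), with female arrays at 1, 1.24, 1.28, 1.36 and 1.43. Only the lowest male array lay within the female range. miR-214-3p differed by 0.29 ± 0.11 (adjusted p = 0.0521) and miR-199a-3p by 0.12 ± 0.08 (adjusted p = 0.268). None was called, beside 3.54% of all miRNAs called higher. miR-199a-5p was called with the percentile over miRNAs detected on all arrays (0.62), with that over all miRNAs of the array (0.75) and without 78-week male replicate 4 (0.59).

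Before 78 weeks no member differed between the sexes by the call rule. At 2 weeks males were higher by 0.21 ± 0.08 for miR-199a-3p, 0.17 ± 0.11 for miR-199a-5p and 0.30 ± 0.12 for miR-214-3p, and 2 of these had an unadjusted p under 0.05 (0.0123 for miR-199a-3p and 0.0121 for miR-214-3p) but not an adjusted one (0.0908 for both), beside 3.86% of all miRNAs called. From 5 to 21 weeks the 15 differences ran from -0.22 to 0.11, and their sign changed with the scaling for several of them. None of the 15 had an unadjusted p under 0.05, and limma and the methods' t-test called none. At 8 weeks the miR-214-3p males were wholly below the females, as were 5.14% of all miRNAs, with a difference of -0.22 ± 0.12 (adjusted p = 0.531). Of all miRNAs, 0% were called at 5 weeks, 0.322% at 6, 1.29% at 8, 3.54% at 15 and 4.82% at 21.

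The effect of age depended on sex for all 3 members. The moderated F test of the 7 interaction terms gave an adjusted p of 0.000108 for miR-199a-5p, 0.00167 for miR-214-3p and 0.00258 for miR-199a-3p, beside 27.7% of all miRNAs that passed. The change from 21 to 104 weeks was larger in males than in females by 0.61 ± 0.15 (SE) for miR-199a-5p (adjusted p = 0.0023), 0.46 ± 0.16 for miR-214-3p (adjusted p = 0.0343) and 0.42 ± 0.11 for miR-199a-3p (adjusted p = 0.00632). All 3 passed this test, which has no fold threshold, beside 5.47% of all miRNAs passing in that direction. With the percentile over all miRNAs of the array neither miR-199a-3p (0.49, adjusted p = 0.113) nor miR-214-3p (0.54, adjusted p = 0.148) passed it, and the interaction of miR-199a-3p over all ages did not pass (adjusted p = 0.0887). miR-214-3p also missed it with the replicate number as a block (adjusted p = 0.0536) and with all miRNAs of the array tested (adjusted p = 0.0776). For miR-214-3p it did not pass when any of 8 arrays was left out, with adjusted p from 0.0597 to 0.12. These were 21-week female replicates 4 (0.41) and 5 (0.45), 21-week male replicates 2 (0.41) and 4 (0.44), 104-week female replicates 1 (0.41) and 2 (0.44) and 104-week male replicates 2 (0.39) and 6 (0.42).

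**Figure D2:**
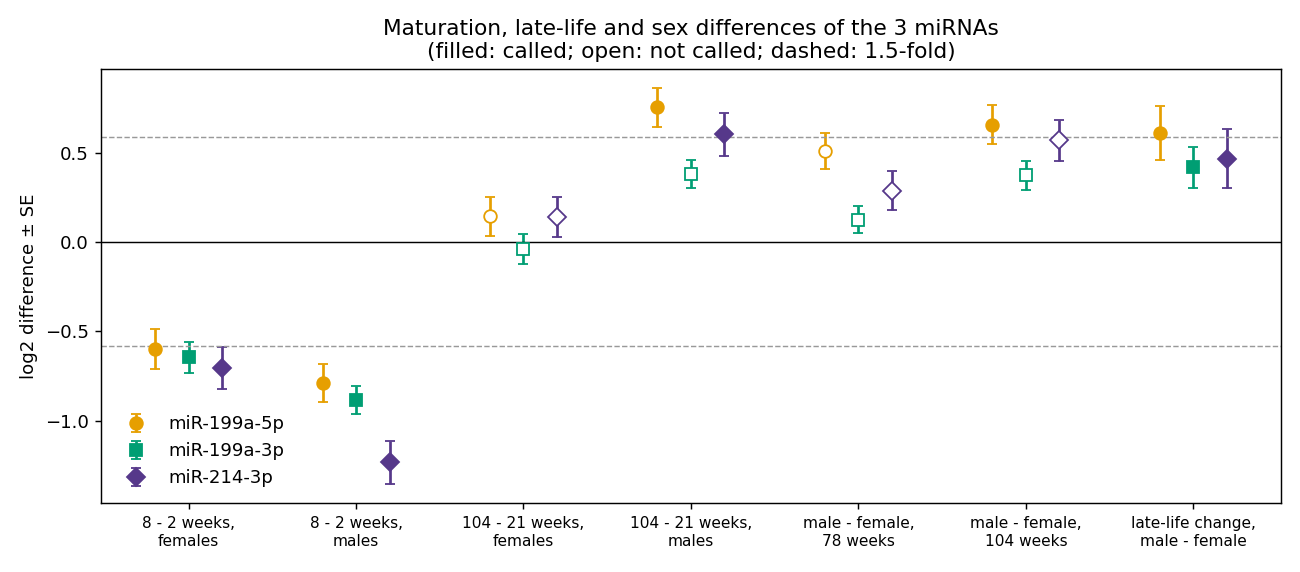
log2 differences ± SE of the 3 members for maturation (8 minus 2 weeks), late life (104 minus 21 weeks), sex at 78 and 104 weeks, and the late-life change of males minus that of females. Filled symbols were called, and the dashed lines mark 1.5-fold, which the last column does not require. All maturation differences lie below 0, and in late life the male differences lie between 0.38 and 0.75 while the female ones lie between -0.04 and 0.14.

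The scaling bears on the late-life values. The 166 miRNAs detected on all arrays had a median difference of -0.20 between 104-week and 21-week males and of -0.16 between 104-week males and females. Relative to those medians the male late-life differences would be larger than given above. With the percentile taken over these 166 miRNAs, the medians moved past 0, to 0.12 and 0.04. The male late-life difference of miR-199a-3p was then 0.70 and called, under a scaling in which the median miRNA was itself 0.12 higher.

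Each member was measured by 2 probes with 10 spots each. Both probes of every member went the same way in the maturation, the male late-life and the 104-week sex comparison. For miR-199a-5p, whose second probe carried 9.05% of the signal, the probes gave -0.82 and -0.54 for maturation in males and 0.75 and 0.82 for late life in males. For miR-199a-3p they gave -0.85 and -0.90, and 0.38 and 0.38. For miR-214-3p they gave -1.26 and -1.19, and 0.59 and 0.62. The probes of miR-199a-3p and miR-214-3p differed from each other by less than the SE of the miRNA in all 5 comparisons computed.

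The ratio between members within an array was followed as well, because it does not depend on the scaling. The 2 arms of the miR-199a hairpin kept their ratio up to 15 weeks, with miR-199a-3p over miR-199a-5p within -0.09 and 0.15 of its 2-week mean on the log2 scale in both sexes. In late males it moved toward the 5p arm, by -0.16 ± 0.11 (SD) at 21 weeks, -0.29 ± 0.10 at 78 weeks and -0.54 ± 0.25 at 104 weeks (5, 5 and 4 arrays). In females the 3 ages stood at -0.03 ± 0.12, 0.14 ± 0.14 and -0.21 ± 0.08 (4, 5 and 5 arrays). These ratios were not tested. The late ages lay on other slides than the 2-week arrays, so that slide and age cannot be told apart in these changes from 2 weeks.

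The ratio of miR-214-3p to miR-199a-3p was lower at every later age than at 2 weeks. It was lowest from 15 to 21 weeks, at -0.45 ± 0.03 and -0.47 ± 0.07 in females and at -0.44 ± 0.07 and -0.41 ± 0.06 in males. By 104 weeks it stood at -0.29 ± 0.12 in females and -0.19 ± 0.18 in males. The ratio of miR-214-3p to miR-199a-5p in males was -0.58 ± 0.15 at 21 weeks, -0.59 ± 0.16 at 78 and -0.72 ± 0.12 at 104. In females it was -0.50 ± 0.18, -0.23 ± 0.13 and -0.50 ± 0.11 at the same ages. These ratios too were given as descriptions. From 15 weeks on they also cross the slide sets, except for 1 array, so that slide and age cannot be told apart in them.

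**Figure D3:**
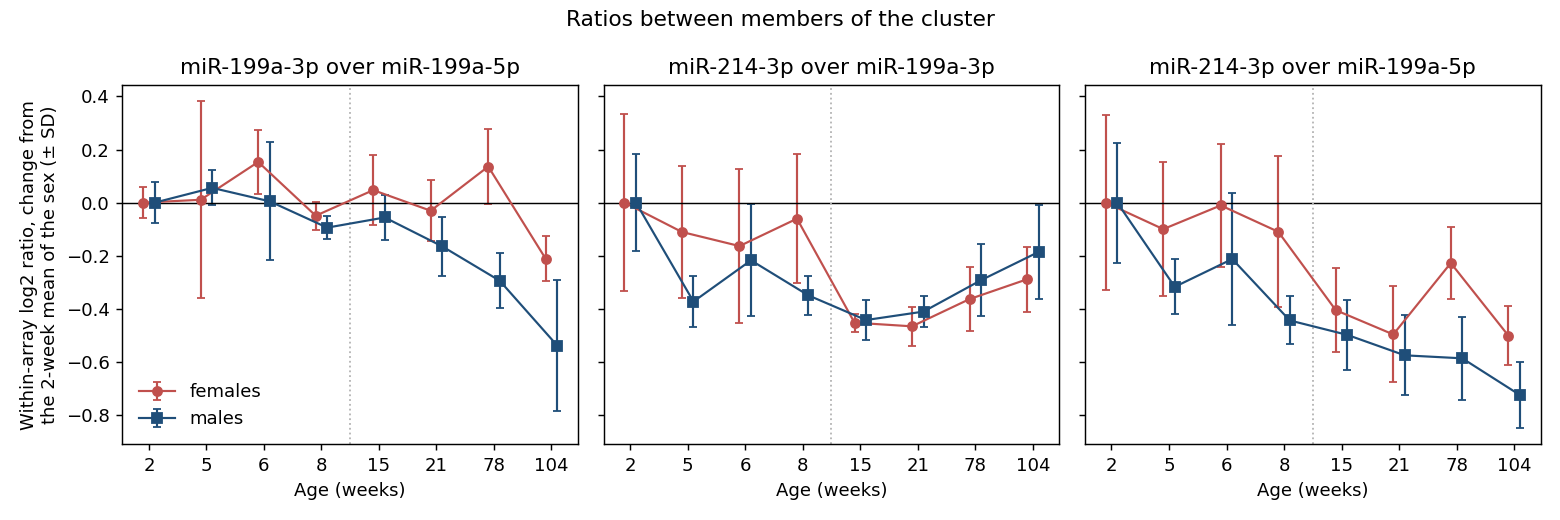
Within-array log2 ratios between the members, as the change from the 2-week mean of the same sex (mean ± SD of 4 or 5 arrays), against age in weeks. The dotted line separates the slide sets. The ratio of the 2 miR-199a arms falls to -0.54 in 104-week males and -0.21 in 104-week females. That of miR-214-3p to miR-199a-5p stands at -0.72 and -0.50 in the same groups.

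The 3 members were alike in their group means, with Pearson's r over the 16 groups of 0.98 for miR-199a-3p with miR-214-3p, 0.89 for miR-199a-5p with miR-214-3p and 0.88 for the 2 miR-199a arms. The 16 means share arrays and scaling, and the 2-week groups weigh heavily in them. Between animals of the same group the members were less alike. The deviations of the 74 arrays from their group means gave r of 0.49 for the 2 arms of miR-199a and 0.36 and 0.35 for miR-214-3p with miR-199a-3p and miR-199a-5p, where all pairs of miRNAs detected on all arrays had a median of 0.10 and a 90th percentile of 0.49.

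Of the 163 other miRNAs detected on all arrays, those whose group means were most like miR-199a-3p were miR-20b-5p (r = 0.96), miR-322-5p (0.95), miR-17-5p (0.93), miR-20a-5p (0.93) and miR-25-3p (0.92). Those most like miR-214-3p were let-7i-5p (0.95), miR-322-5p (0.92), miR-25-3p (0.92), miR-20b-5p (0.91) and miR-17-5p (0.91). All of these had higher group means at 2 than at 8 weeks in both sexes. For miR-199a-5p they were miR-532-3p (0.85), miR-17-5p (0.82), miR-20b-5p (0.82), miR-34c-5p (0.81) and miR-331-3p (0.81). Between 104 and 21 weeks in males, miR-17-5p differed by 0.10 and miR-20b-5p by 0.14, while miR-322-5p differed by 0.35 and miR-34c-5p by 1.40 (0.18 in females), as differences of group means without a test.

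The cluster was set beside other miRNAs of mesenchyme and smooth muscle. Of the 19 such arms on the array, 13 were detected. From 2 to 8 weeks 3 were called lower and 1 higher in females, and 2 lower and 4 higher in males. Of all miRNAs 11.6% and 15.1% were called lower. The median difference was -0.49 in females and -0.12 in males against 0 for all 311. miR-335, which lies within the imprinted gene Mest, fell with the cluster by 1.65 in females and by 1.69 in males. The 4 that rose in males were miR-195-5p (1.02), miR-497-5p (0.87), miR-140-3p (0.68) and miR-140-5p (0.60). In females the 1 that rose was miR-140-3p (0.59). miR-143-3p, a marker of smooth muscle, differed by -0.13 and -0.12, which was not called. Between 21 and 104 weeks 0 of the 13 were called higher in either sex, and 1, miR-10b-3p (-0.63), was lower in males, where 8.04% of all miRNAs were. The median was 0.03 in females and -0.13 in males.

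Of the 30 arms listed for kidney fibrosis, 21 were detected. Between 21 and 104 weeks in males 3 rose and 3 fell, beside 5.79% of all miRNAs called higher and 8.04% called lower. miR-21-5p, a miRNA of injury and fibrosis, rose by 1.02 in males (adjusted p = 0.000219) and was 0.52 higher in females, which was not called. miR-132-3p rose by 1.48 in males. miR-34a-5p, a target of p53, rose in both sexes, by 1.06 in males and 0.95 in females. During maturation the miR-29 family, which restrains collagen messenger RNAs, moved opposite to the cluster, with miR-29c-3p up by 2.09 in females and 3.32 in males. The 3 of this list that fell in old males were both miR-192 arms and miR-200b-5p, which also mark tubular epithelium.

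**Figure D4:**
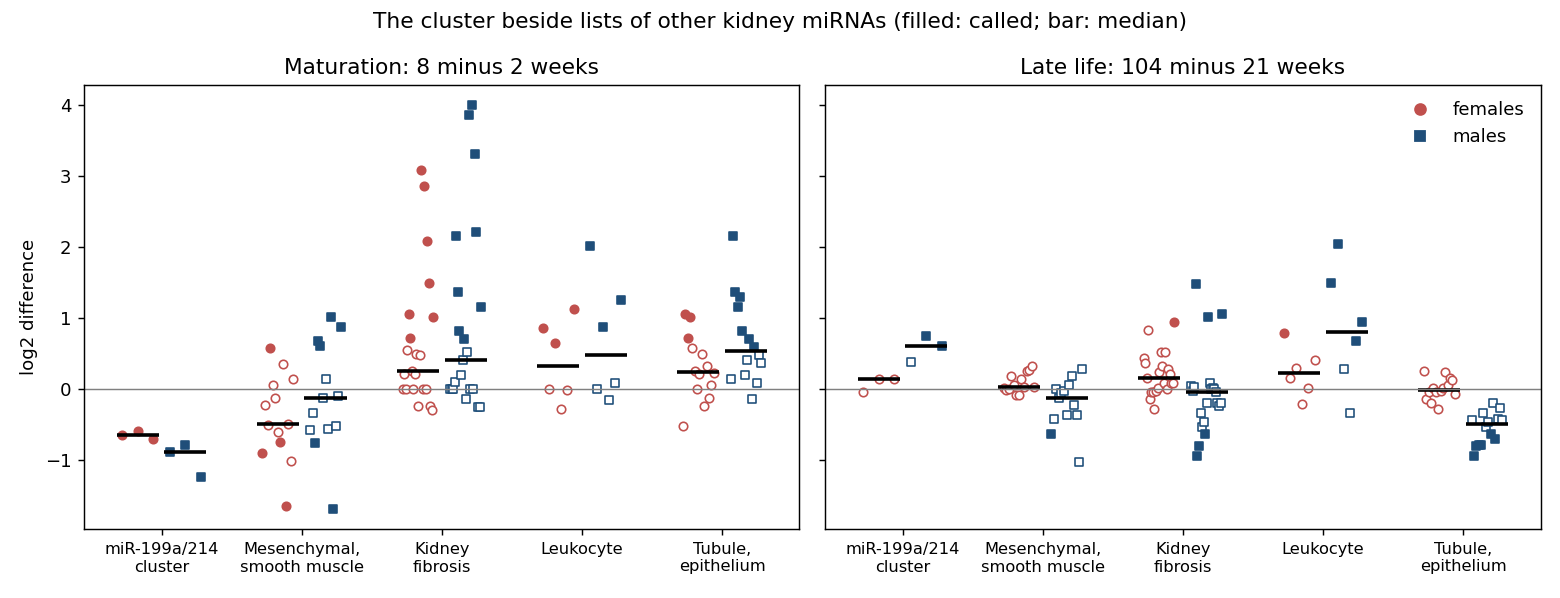
log2 differences for maturation (left) and late life (right) of the 3 members and of 4 lists of other miRNAs, females as circles and males as squares, with 1 point per detected miRNA, filled where called, and a bar at the median of each list. In late life the members and the leukocyte list lie mostly above 0 in males, and the tubule list lies below 0.

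Markers of other cell types moved with the members in late males. Of 8 leukocyte arms 6 were detected and 4 rose between 21 and 104 weeks in males, as did 1 in females. Of all miRNAs 5.79% were called higher in males and 1.29% in females. Their summed normalized intensity ran from 8.74 to 10.2 in 21-week males and from 11.8 to 16.5 in 104-week males. In females it ran from 7.41 to 8.73 and from 9.15 to 10.2. The sum is weighted toward bright probes, the largest term being miR-146a-5p (mean 5.87 in 21-week and 7.11 in 104-week males), which differed by 0.28 and was not called. miR-150-5p, a miRNA of lymphocytes, rose by 0.67 in males, and miR-223-3p, a miRNA of neutrophils, rose by 0.95. The other arm of miR-150, miR-150-3p, went the other way, by -0.33 in males and -0.21 in females, and was not called. miR-142-3p, made by blood cells, rose in both sexes, by 0.79 in females. The undetected arms were miR-146a-3p and miR-223-5p. The leukocyte list went the other way from the cluster in maturation, with 3 arms rising and none falling in each sex.

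Of the 17 tubule and epithelial arms 14 were detected, 11 of them on all arrays, so that the tissue carried its label. In late life 6 fell in males and 0 in females, beside 8.04% of all miRNAs called lower in males. The summed intensity of the 14, also weighted toward bright probes, ran from 74.1 to 80.1 in 21-week males and from 50.1 to 59.7 in 104-week males. In females it ran from 68.7 to 81.7 and from 70.3 to 84.6. Of the endothelial arms, both of miR-126a, 0 were called in any of the 5 comparisons. Of 3 detected erythroid arms 2 rose in late males and 1 in late females, beside 5.79% and 1.29% of all miRNAs called higher. The 2 included miR-144-5p, which was detected on 14 of 74 arrays. It ran from 0.0245 to 0.0350 in 104-week males, near the floor of 0.0171. The sums of the 3 erythroid arms ran from 1.15 to 2.19 in 21-week and from 2.55 to 4.46 in 104-week males. In late males 0 of 4 detected striated muscle, 0 of 2 liver and 0 of 2 neuron arms rose, and 1, 0 and 1 fell. The muscle arm that fell was miR-206-3p, which was at the floor in every 104-week male, and the neuron arm was miR-9a-5p. In late females miR-122-5p rose by 2.81 and miR-208a-5p fell by 3.42 to the floor, and 0 neuron arms were called. The part of these cell types in the members' levels was not tested.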

How the data were processed

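Total RNA of each animal's kidney was labeled with Cy3 and hybridized to Agilent Rat miRNA arrays. The authors scanned and quantified the 74 arrays with Agilent Feature Extraction 10.7.3.1, which gives an intensity per spot and a background-subtracted total gene signal per miRNA. The deposited intensities are not normalized between arrays, and no spot of a miRNA was saturated. A deposited table of processed intensities was not used, because most of its columns matched the array of another animal.

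Signals of the 311 miRNAs detected on at least 1 array were divided by their 75th percentile on each array (81.2 to 283). Scaled values under a common floor (0.0171), detected or not, were then raised to it, and log2 was taken. limma 3.58.1 in R 4.3.3 fitted 1 mean per group, over all 16 groups for sex and interaction and within each sex for age. The number of arrays limits the precision, and 190 to 264 miRNAs were detected per array. The 10 slides split by age, 5 holding ages up to 8 weeks (and 1 array of 15 weeks) and 5 the later ages, so that the comparisons between ages were chosen within a slide set. Animals were independent, and replicate numbers matched no shared deviation (mean correlation -0.05 over 28 same-numbered pairs). Arrays on the same slide did share deviations, with a mean correlation of 0.22 over 238 pairs from different groups. On different slides it was -0.02 over 2327 pairs. The main fit held no slide term, and slide as a block was an alternative. For the age effect, a pair of ages at least 1.5-fold apart was required beside the adjusted p, and for the interaction the adjusted p alone. Code was tested on simulated data.

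The alternatives were the floor set before scaling, other sets of miRNAs for the percentile, quantile normalization, normexp background with an offset of 50, detection in 50% of a group, all 677 miRNAs tested, the methods' t-test or ANOVA, no fold threshold, slide as a fixed or random block, the replicate number as a block, each probe alone and each array left out. An interpolated percentile was added after the data had been seen. The members, the related and marker lists and the comparisons were chosen with earlier results of these data known. The miRNAs named are the members, the 5 most like each member and listed miRNAs that were called or are well-known markers. Sequences and positions are from RefSeq on GRCr8, and the array's own design was annotated on rn4, whose positions were not used.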

Additional observations from a re-analysis of the deposited data

Results flagged for a closer look

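The change from 21 to 104 weeks differed between the sexes in all 3 members, being larger in males by 0.61 on the log2 scale for miR-199a-5p, 0.46 for miR-214-3p and 0.42 for miR-199a-3p. The age-by-sex interaction over all ages also passed, with an adjusted p (limma) of 0.000108, 0.00167 and 0.00258 in the same order. Among the 48 combinations of member and group, 1 had an array far from the rest, where chance alone gives such a gap in about 1 in 20 groups. This was miR-214-3p in 8-week female replicate 2, at 2.81 where the other 3 females lay between 2.24 and 2.28. Without that array the fall of miR-214-3p from 2 to 8 weeks in females was -0.79 and the difference between the sexes at 8 weeks was -0.15.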

How the results depend on the processing

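Of the 27 main results on the members, under 15 alternatives each, 378 of 405 values kept both direction and side of the threshold. Of the rest, 19 lost the call and 8 gained it, and 0 of the 405 changed sign. Where only the fold threshold or the set of miRNAs tested changed, that is the cause, and otherwise the cause was not tested. The tests of the age effect and of the interaction have no direction, so their values could not change sign. Nor could the differences under alternatives that left them unaltered, such as the floor set before scaling, all miRNAs tested or no fold threshold. The count of sign changes therefore says nothing about these values, for which only the call could change.

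Taking the percentile over all miRNAs of the array ended the calls from 2 to 8 weeks in females (-0.46 for miR-199a-5p, -0.51 for miR-199a-3p and -0.57 for miR-214-3p), the interaction of miR-199a-3p (adjusted p = 0.0887) and the late-life difference between the sexes of miR-199a-3p (0.49) and miR-214-3p (0.54). Normexp ended the calls of miR-199a-5p at 104 weeks between the sexes (0.44), from 2 to 8 weeks in females (-0.29) and males (-0.44), from 21 to 104 weeks in males (0.43) and for age in females (adjusted p = 2.73e-06, no pair past 1.5-fold), and of miR-214-3p in late males (0.45). Quantile normalization ended those of miR-199a-5p from 2 to 8 weeks in females (-0.27) and of miR-214-3p in late males (0.55). Testing all miRNAs ended the late-life difference between the sexes of miR-214-3p (0.46). With 1 probe alone, miR-199a-5p was not called from 2 to 8 weeks in females (-0.58, first probe) or males (-0.54, second probe). At 104 weeks miR-214-3p was called in males against females with the percentile over miRNAs detected on all arrays (0.76), over all miRNAs (0.72) or interpolated (0.60), with the second probe (0.63) and with no fold threshold (0.57), which also called miR-199a-3p (0.37). In late males miR-199a-3p was called with the percentile over miRNAs detected on all arrays (0.70) and with no fold threshold (0.38). The 78-week sex difference of miR-199a-5p was also called with the percentile over all miRNAs (0.75), with that over miRNAs detected on all arrays (0.62) and with no fold threshold (0.51).

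With the replicate number as a block, miR-214-3p lost its late-life difference between the sexes (0.46, adjusted p = 0.0536) and its call in late males (0.58), and no other of these calls changed. The numbers did not pair the animals, since 10 of 28 same-numbered pairs correlated above 0.1, beside 54 of 143 pairs with other numbers. Slide as a fixed or random block changed none of them.

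Leaving out each of the 74 arrays gave -0.65 to -0.54 for miR-199a-5p and -0.70 to -0.58 for miR-199a-3p from 2 to 8 weeks in females, 0.57 to 0.72 for miR-199a-5p and 0.49 to 0.64 for miR-214-3p between the sexes at 104 weeks, 0.53 to 0.68 for miR-214-3p in late males and 0.39 to 0.54 for its late-life difference between the sexes.

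Uncalled sex differences from 5 to 21 weeks changed sign. With the percentile over all miRNAs these were miR-199a-5p at 5 weeks (-0.025) and, at 15 weeks, miR-199a-3p (0.12), miR-199a-5p (0.18) and miR-214-3p (0.22), and miR-199a-3p at 21 weeks (0.029). With the percentile over miRNAs detected on all arrays they were miR-199a-5p at 6 (-0.051), 15 (0.024) and 21 weeks (-0.12) and miR-214-3p at 15 (0.066) and 21 weeks (-0.061). Quantile normalization (-0.0035) and the fixed slide block (-0.0057) turned miR-199a-5p at 5 weeks, and that block turned miR-199a-3p (0.0067) and miR-199a-5p (0.015) at 8 weeks. The first probe turned miR-214-3p at 6 weeks (0.0071), and the second miR-199a-5p at 6 (-0.055) and 8 weeks (0.30). With arrays left out, the ranges that crossed 0 were, for miR-199a-5p, -0.058 to 0.12 at 5 weeks, -0.063 to 0.11 at 6 and -0.084 to 0.030 at 8, for miR-199a-3p, -0.068 to 0.0050 at 8, and, for miR-214-3p, -0.095 to 0.026 at 6 and -0.11 to 0.0070 at 15.

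Counts over all miRNAs moved by over 1.5 times with several alternatives. The 43 called between 21 and 104 weeks in males became 5 with normexp and 93 with no fold threshold. The 59 with a late-life difference between the sexes became 32, 16 and 37 with the other percentiles and quantile normalization, and the 86 interactions became 50 with the percentile over all miRNAs. From 2 to 8 weeks, normexp left 19 of 65 in females and 32 of 94 in males.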
